A study of Mus musculus with 7 samples.

Results

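The genes described here encode subunits of BAF, the mammalian SWI/SNF complex that uses ATP to slide and evict nucleosomes. They are the 10 genes Smarca2, Smarca4, Smarcb1, Smarcc1, Smarcc2, Smarcd1, Smarce1, Arid1a, Arid1b and Actl6b, of 21887 protein-coding genes placed on the chromosomes in the RefSeq table of GRCm38.p6. Fos binding at them was read from peak lists: every peak within 10 kb of the span of one of these genes was taken. This rule used position only and no measured value, but the genes were chosen with earlier results of these data known. The lists come from chromatin immunoprecipitation followed by sequencing (ChIP-seq) with an antibody against Fos in the hippocampus of wild-type C57BL/6J mice aged 2 months. One group of 3 libraries came from mice given saline. The other 3 libraries came from mice given kainic acid, a glutamate receptor agonist that provokes seizures, as 2 intraperitoneal doses of 10 mg/kg 30 min apart; the animals taken had reached level 4 seizures, and the tissue was collected 1 hour after dosing began. An input library, chromatin of the saline condition without antibody, was not analysed here.

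BAF is built in modules. An ATPase (Smarca2, also called BRM, or Smarca4, also called BRG1) sits with core subunits shared by most forms of the complex, and an Arid1a or Arid1b subunit marks the canonical form. Neurons swap some subunits when they leave the cell cycle, and Actl6b, also called BAF53b, is the neuronal actin-like one. Fos is a subunit of AP-1, a dimeric transcription factor induced by intense neuronal firing that reads the motif TGANTCA. AP-1 has been described to act together with BAF at enhancers.

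3 short sequences show where Fos peaks and AP-1 letters did and did not meet at the annotated starts of these genes. All are from RefSeq promoter records of GRCm38.p6, which matched 9 of the 10 genes, all but Smarce1. The first is 29 bases just after the start site of Smarca2 (chr19:26605177-26605205, plus strand), with the motif match in capitals. The next is the 250 bases before the start site of Smarcb1 (chr10:75921615-75921864, minus strand), also with its match in capitals. The last is the 250 bases before the start site of Actl6b (chr5:137553296-137553545, plus strand), where capitals mark the 86 bases under a peak of saline replicate 2.
Smarca2: tgtactctgggTGACTCAgagagggaaga
Smarcb1: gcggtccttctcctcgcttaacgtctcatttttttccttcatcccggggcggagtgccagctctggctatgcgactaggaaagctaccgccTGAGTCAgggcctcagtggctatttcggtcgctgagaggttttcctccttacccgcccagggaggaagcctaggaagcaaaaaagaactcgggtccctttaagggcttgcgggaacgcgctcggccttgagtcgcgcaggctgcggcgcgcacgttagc
Actl6b: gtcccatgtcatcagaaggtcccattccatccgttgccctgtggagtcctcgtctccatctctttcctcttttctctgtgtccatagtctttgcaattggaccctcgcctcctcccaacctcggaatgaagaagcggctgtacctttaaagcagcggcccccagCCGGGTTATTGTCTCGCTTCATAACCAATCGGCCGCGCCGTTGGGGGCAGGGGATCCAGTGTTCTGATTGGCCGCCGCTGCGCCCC

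The match in Smarca2 lay 51 bp from the nearest summit of kainic acid replicate 2 and 160 bp from the nearest summit of replicate 3. The match in Smarcb1 began 159 bp before the start site, and the nearest kainic acid summit was 3236 bp away. No TGANTCA was found in the other 8 of 10 promoter records of these genes (250 bases before to 50 after each start; Arid1a has 2 records). The motif reads the same on both strands. Among all 32851 promoter records of this length, 7.81% held it, and of the 21263 records of protein-coding genes 6.99% did. The related cyclic AMP motif TGACGTCA was in none of the 10 records and in 1.79% of all. It was in 2.23% of the records of protein-coding genes. The 10 records were rich in G and C, with 60.7% to 81.0% and a median of 68.7%, against a median of 52.7% over all records. That set includes genes that are not protein-coding, and the median without them was not computed. A peak overlapped 2 of these records: one of kainic acid replicate 2 at Smarca2 and one of saline replicate 2 at Actl6b. The share of all promoter records under a peak was not computed, so whether 2 of 10 is usual is not known.

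After kainic acid, Fos peaks of at least 1 list were called near 9 of the 10 genes, against 61.2% of all protein-coding genes. All 9 had a peak of replicate 2, the longest list, and 60.3% of all protein-coding genes had one too. Smarce1, which encodes the HMG-box core subunit BAF57, had none in any list. Kainic acid replicates 1, 2 and 3 had 10, 90 and 32 peaks within 10 kb of these genes. Saline replicates 1, 2 and 3 had 0, 5 and 0. Each kainic acid list held more than each saline list, and the groups did not overlap. On the scale log10(number of peaks + 1), the kainic acid libraries averaged 1.51 ± 0.459 (SD, n = 3). The saline libraries averaged 0.26 ± 0.449 (SD, n = 3). The difference of 1.25 exceeded either SD, and an exact permutation test (two-sided, 20 assignments) gave p = 0.1, the lowest p that this design can reach. The labels do not say that the libraries of a group came from separate animals, so p measures the spread between these libraries, which may be technical. Without Arid1b, which held most of the replicated regions, the difference was 0.88 (exact permutation p = 0.2). The kainic acid lists then held 3, 45 and 13 peaks and the saline lists 0, 5 and 0. Saline replicate 2 thus exceeded kainic acid replicate 1, so the separation of the groups rested on Arid1b.

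These counts followed the lengths of the lists. The kainic acid lists held 15009, 63197 and 29650 peaks in all and the saline lists 7, 3277 and 2, so saline replicates 1 and 3 could have shown little anywhere. As a share of its own list, 0.0666% of the peaks of kainic acid replicate 1 lay near these genes (95% Clopper-Pearson interval 0.0320 to 0.122). The share was 0.142% in replicate 2 (0.115 to 0.175) and 0.108% in replicate 3 (0.0738 to 0.152). In saline replicate 2 it was 0.153% (0.0496 to 0.356), an interval that overlaps those of all 3 kainic acid lists. The intervals cover counting error only. A difference in the share was therefore not detectable with 5 saline peaks. In bulk hippocampus, fewer cells with Fos at a site and less Fos per cell cannot be told apart.

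**Figure D1:**
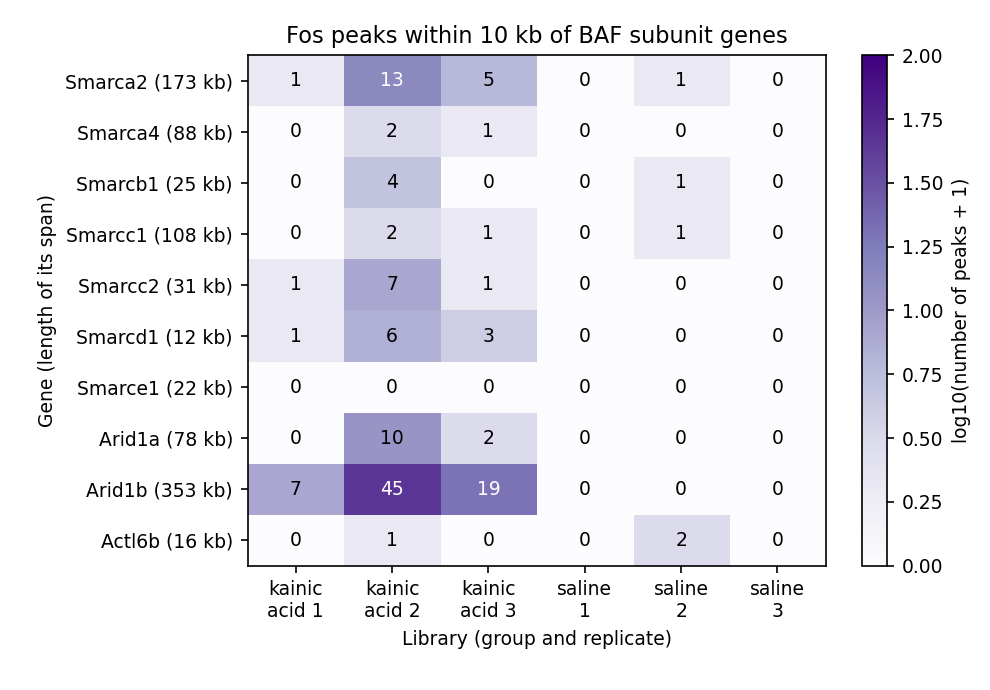
Number of Fos peaks within 10 kb of each BAF subunit gene (rows, with the length of the gene's span in kb) in each of the 6 libraries (columns); the colour gives log10(number of peaks + 1). Arid1b has 7, 45 and 19 peaks in kainic acid replicates 1, 2 and 3, and the only saline peaks are 5 of replicate 2.

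Overlapping peaks of all lists were merged into regions, and a region was called replicated when at least 2 of the 3 kainic acid lists had a peak in it. The 10 genes had 96 regions with a kainic acid peak: 8 in all 3 lists, 18 in exactly 2 and 70 in 1. Of those in 1 list, 63 came from replicate 2, the longest list, 7 from replicate 3 and 0 from replicate 1. The 26 replicated regions were 27.1% of the 96, while over the genome 40.3% of 66683 regions were replicated. Regions in all 3 lists were 8.33% here and 17.9% over the genome. Kainic acid replicate 2 was in all 26 replicated regions, replicate 3 in 24 and replicate 1 in 10. Without replicate 2 there were 8 replicated regions, and without replicate 3 there were 10.

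By gene, 5 of the 10 had a replicated region, against 40.0% of all protein-coding genes, and 4 of the 10 had a region in all 3 lists, against 23.9%. Each gene counts for 10 percentage points, so the first share is 1 gene and the second under 2 genes above the background. Long genes offer more room, so the count was also read by length. Of genes spanning over 100 kb, 2 of 3 had a replicated region (81.6% of all genes of that length), of those from 20 to 100 kb, 2 of 5 (48.1%), and of those under 20 kb, 1 of 2 (26.3%). In single lists, a peak of kainic acid replicate 1 lay near 4 of the 10 genes (26.4% of all protein-coding genes), one of replicate 2 near 9 (60.3%) and one of replicate 3 near 7 (40.9%). A peak of saline replicate 2 lay near 4 (17.0%).

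Most replicated regions lay inside the genes and far from their starts. Of the 26, 22 had their median summit inside the span, 2 lay upstream and 2 downstream. The windows searched consisted mostly of gene span, and 15 of the 26 regions were at Arid1b, the longest gene. A position inside a gene and far from its start is therefore favoured by the selection. The same share over all genes was not computed, so these positions do not set the 10 genes apart. Only 2 were within 1 kb of an annotated start site, at Smarca2 and Smarcd1, and 20 were over 10 kb from one. The table used gives no exons, so whether a position is exonic or intronic is not stated. For 25 of the 26 the BAF gene was the nearest protein-coding gene, which the selection within 10 kb also favours. Their median width was 662 bp, against 686 bp for all 26862 replicated regions. Where a region falls in its list was read from the authors' fold, the ratio of a peak to its local background, as a percentile in which 0 is the highest fold of the list. The mean percentile over lists had a median of 49.0 for the 26 regions and 42.2 for all replicated regions. For the 8 in all 3 lists it was 17.7, against 30.3 for all 11937 such regions. Of these 8, 5 were at Arid1b, and 3 of those lay within 7170 bp, so this median rests largely on 1 gene.

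**Figure D2:**
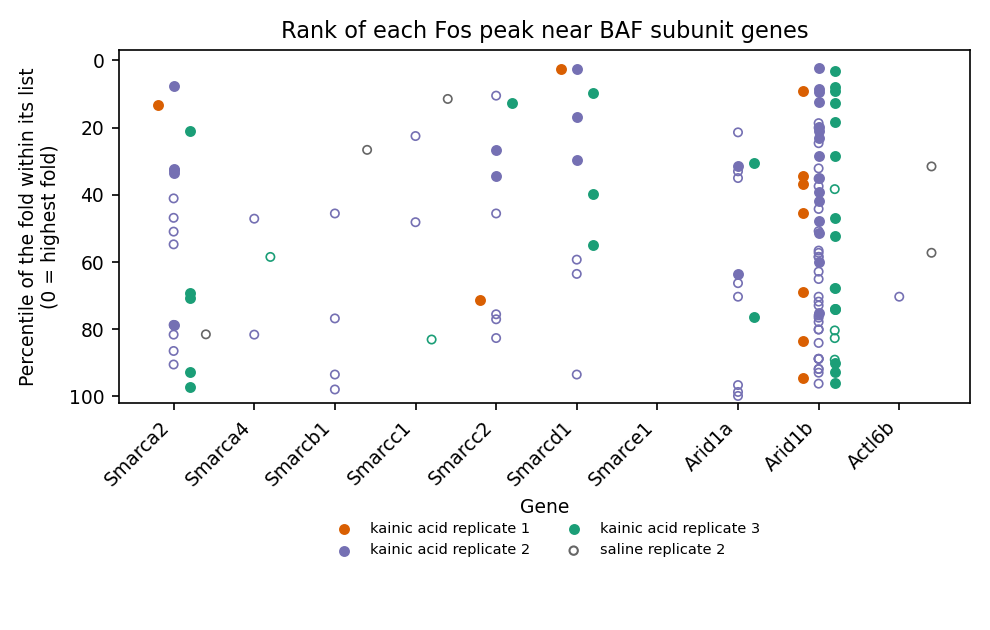
Percentile of the authors' fold of every peak near the BAF subunit genes within its own list (0 is the highest fold, at the top), by gene and library. Filled points are peaks of replicated regions and open points all others; the highest points are those of Arid1b and Smarcd1, at 2.36 and 2.60 in kainic acid replicate 2.

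Of the 2 ATPases, Smarca2 had replicated regions and Smarca4 had none. Smarca2 (chromosome 19, 26605073 to 26778321) had 1, 13 and 5 peaks in kainic acid replicates 1, 2 and 3, and 1 in saline replicate 2. They made 13 regions, of which 5 were replicated and 1 was in all 3 lists. That region lay 146 kb into the gene (chromosome 19, 26751070 to 26751732). Its fold was 6.28, 9.02 and 5.36 in replicates 1, 2 and 3, at percentiles of 13.2, 7.49 and 21.1. All 3 libraries placed it well above the middle of their list. A second region, 606 bp wide, followed at 148 kb and was called in replicates 2 and 3 (percentiles 32.5 and 69.2).

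The other replicated regions of Smarca2 clustered at its start and were absent from the list of replicate 1. The one over the start site (26605007 to 26605590) held the TGACTCA shown above. Only its replicate 2 peak covered the start site and the match. Its replicate 3 peak (26605270 to 26605539) began past both. The fold of this region was 5.26 in replicate 2 and 2.59 in replicate 3, percentiles of 32.3 and 97.3. It thus stood near the bottom of the list of replicate 3. Yet the reads over its summit, solved from the deposited fold and p, were 61 in replicate 2 and 41 in replicate 3. The local background there was 10.8 and 15.2 reads, against 2.99 and 4.41 at the region 146 kb into the gene, where the summits held 35 and 28 reads. These backgrounds were solved from the same fold and p, so they are no separate measurement, and a cause of the low fold was not tested. A nearby peak of replicate 2 alone (26604452 to 26604803) had a fold of 4.27 and a background of 4.15 reads. The remaining 2 lay 3323 bp before the span and 3.13 kb after the start site. The saline peak of Smarca2 (26605876 to 26606096, fold 3.53) had its summit 796 bp after the start site and overlapped no kainic acid peak. The lncRNA Gm52395 of the table also spans the start of Smarca2. Of the genes over 100 kb, 33.5% had at least as many replicated regions as Smarca2. Without replicate 2, or without replicate 3, Smarca2 had 1.

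Smarca4 (chromosome 9, 21616106 to 21704230) had 2 peaks in replicate 2, 1 in replicate 3 and none in replicate 1 or in saline. The closest summits of the 2 libraries were 2880 bp apart, so no site was shared. Its highest peak (21684027 to 21684604) stood at percentile 47.1 of replicate 2. At a span of 88.1 kb, Smarca4 belongs to the class in which 48.1% of genes had a replicated region.

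**Figure D3:**
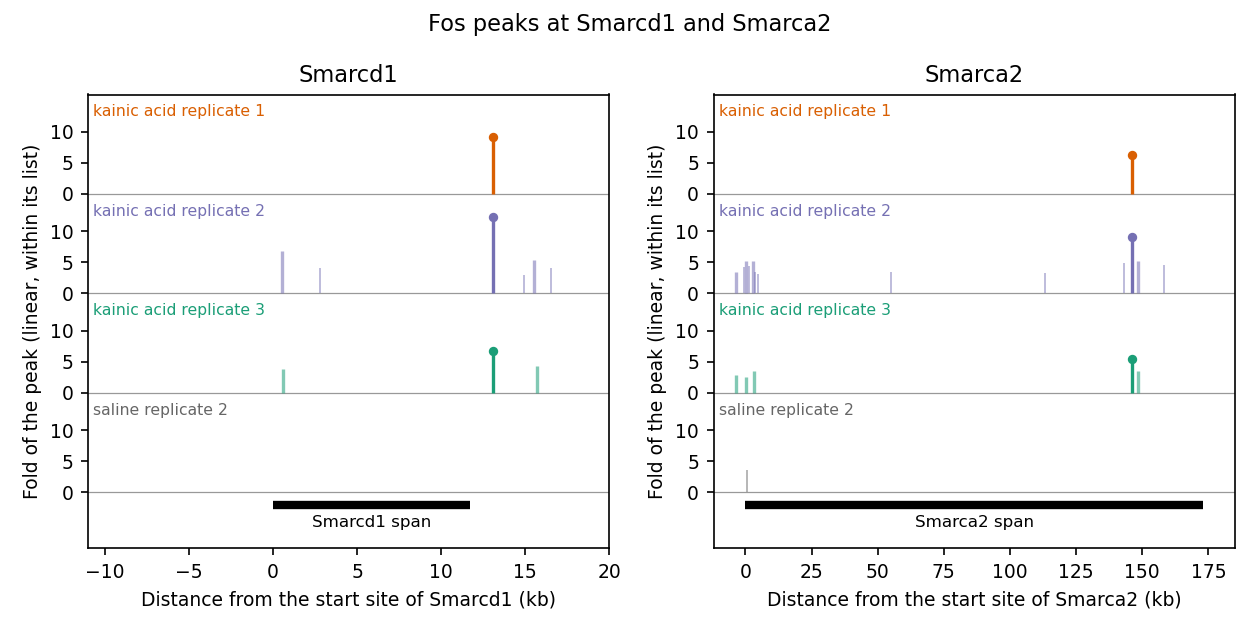
Fos peaks at Smarcd1 (left) and Smarca2 (right): each vertical line is a peak at the distance of its summit from the annotated start site (kb), and its height is the authors' fold within that library; dots mark regions called in all 3 kainic acid lists, and the black bar is the gene's span. The region in all 3 lists lies past the end of Smarcd1, 13.1 kb from its start, and 146 kb into Smarca2.

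The replicated region of best mean rank near these genes was at Smarcd1, which encodes BAF60a, a subunit that links the complex to transcription factors. Smarcd1 (chromosome 15, 99702287 to 99713995) had 1, 6 and 3 peaks in kainic acid replicates 1, 2 and 3 and none in saline. The site (chromosome 15, 99714930 to 99715790) lay 1352 bp past the end of the gene, and its 3 summits fell within 38 bp of each other. Its fold was 9.13, 12.3 and 6.67 in replicates 1, 2 and 3, ranks of 397, 1646 and 2850, or percentiles of 2.64, 2.60 and 9.61. The summits held 88, 103 and 88 reads over a background of 8.74, 7.47 and 12.3. No other peak near the 10 genes had more reads in its library. Of all regions in 3 lists, 7.45% had a lower mean percentile than its 4.95. By −log10 q in place of the fold its mean percentile was 0.882.

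Smarcd1 had 2 further replicated regions, each in replicates 2 and 3. One lay just inside the gene (99702632 to 99703268), with its summit 560 bp after the start site and percentiles of 16.8 and 54.8. The lncRNA Gm34939 covers the same position. The other (99717696 to 99718477) was nearest to Gpd1, a neighbouring gene of glycerol metabolism, and lies in its span. In all, 3 replicated regions lay within 10 kb of a gene of 11.7 kb. Of the 11848 protein-coding genes under 20 kb, 2.55% had at least as many in their windows. Only 1 of the 3 lay inside Smarcd1, and 2 had Smarcd1 as the nearest protein-coding gene. Without replicate 2 or replicate 3 a single region was left, the one past the end of the gene.

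Among the other core subunits, replicated binding was found at Smarcc2 and not at Smarcc1, Smarcb1 or Smarce1. Smarcc1 and Smarcc2 encode BAF155 and BAF170, the paired scaffold subunits. Smarcc2 (chromosome 10, 128459182 to 128490591) had 1, 7 and 1 peaks in kainic acid replicates 1, 2 and 3. Its single replicated region (128488473 to 128489854) was in all 3 lists and lay 30.2 kb from the start, just before the end of the gene. The percentile was 71.2 in replicate 1, 26.6 in replicate 2 and 12.8 in replicate 3, so the libraries ranked this site very differently. Having 1 replicated region or more was common at this length, with 48.1% of genes from 20 to 100 kb. The summits held 15, 20 and 30 reads. A peak of replicate 2 alone, inside the gene at 128463828 to 128464149, ranked higher in its list, at 10.5.

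Smarcc1 (chromosome 9, 110132024 to 110240178) had 0, 2 and 1 kainic acid peaks and no shared region. The nearest summits of replicates 2 and 3 were 1374 bp apart. Its highest peak, 110205606 to 110206384 in replicate 2, had a percentile of 22.5. With a span of 108 kb it was among the minority of genes over 100 kb without a replicated region. A saline replicate 2 peak (110246185 to 110246409, fold 5.23, percentile 11.4) lay in the neighbouring gene Cspg5.

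Smarcb1, which encodes BAF47 or SNF5, a subunit that contacts the nucleosome (chromosome 10, 75896769 to 75921614), had 4 peaks in kainic acid replicate 2 and none in the other 2. Their percentiles ran from 45.5 to 97.9. The saline replicate 2 peak in its window (75893620 to 75893930, fold 4.67) lay in Derl3, the gene next to it. None of these peaks was at the TGAGTCA before the start of Smarcb1. Smarce1 (chromosome 11, 99209047 to 99231017, 22.0 kb) had 0 peaks in each of the 6 lists. A region without a peak was not called, which does not show that Fos was absent.

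The 2 ARID subunits, which bind DNA and define the canonical complex, differed widely in the number of sites and also in length. Arid1b (chromosome 17, 4994297 to 5347656) had 7, 45 and 19 peaks in kainic acid replicates 1, 2 and 3, and none in saline. They made 50 regions, 15 of them replicated and 5 in all 3 lists. It held 57.7% of the replicated regions of the 10 genes. Arid1b is also the longest of them, at 353 kb. Per 100 kb of window it had 4.02 replicated regions, against a median of 1.21 for the 2429 genes over 100 kb. In that class 6.63% of genes had at least as many regions and 11.7% were at least as dense. The number depended on the longer lists, and was 5 without replicate 2 and 7 without replicate 3.

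The sites of Arid1b were counted along the gene. In steps of 60 kb from the start site, it had 1, 2, 3, 3, 5 and 0 replicated regions. The last step reaches past the end of the span, and a departure from even scatter was not tested. 3 of the 5 regions in all 3 lists fell in 7170 bp (chromosome 17, 5255164 to 5262333), 260 to 267 kb into the gene. The first of these (5255164 to 5256090) had a fold of 4.53, 12.7 and 8.88 in replicates 1, 2 and 3, percentiles of 45.5, 2.36 and 3.06. It was near the top of the lists of replicates 2 and 3 and in the middle of the list of replicate 1. The second (5256794 to 5257821) had percentiles of 36.8, 9.39 and 9.14, and the third (5260498 to 5262333) had 34.3, 21.0 and 12.8. By the best peak of each region, replicate 1 ranked each of the 3 lowest among the libraries.

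The best mean percentile in Arid1b, 9.82, belonged to a site 119 kb from the start (5114169 to 5114913). Its fold was 6.93, 7.63 and 7.02, percentiles of 9.22, 12.4 and 7.85, and its summits held 31, 51 and 46 reads. The 3 libraries thus placed it alike. The last region in all 3 lists (5057665 to 5058300) stood at percentiles of 68.9, 35.0 and 28.5. Closer to the start, 2 regions were called in replicates 1 and 2, one 710 bp before the span and one 2.61 kb after the start site. These were the only replicated regions of the 10 genes that replicate 3 lacked, and their percentiles ran from 59.9 to 94.5.

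**Figure D4:**
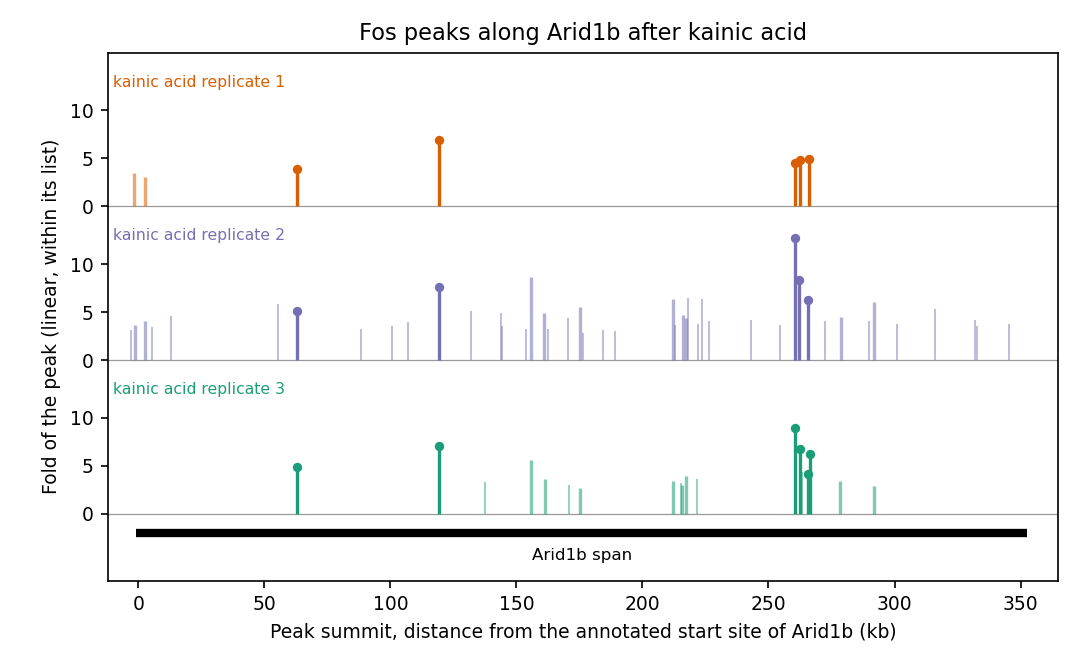
Fos peaks along Arid1b in the 3 kainic acid libraries: each line is a peak at the distance of its summit from the annotated start site (kb), its height is the authors' fold within that library, dots mark regions called in all 3 lists, and the black bar is the span of the gene. 3 of the 5 regions in all 3 lists stand together 260 to 267 kb from the start.

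Arid1a (chromosome 4, 133679008 to 133756769) had 0, 10 and 2 peaks in kainic acid replicates 1, 2 and 3. Of its 10 regions, 2 were replicated, in replicates 2 and 3, and none was in all 3 lists. They lay 26.7 kb (133727041 to 133727608) and 65.5 kb (133688255 to 133688741) from the nearest start site. The percentiles were 63.7 and 30.5 at the first and 31.5 and 76.4 at the second. Of the genes from 20 to 100 kb, 24.0% had at least as many. Its span is 77.8 kb, and per 100 kb of window it had 2.05 replicated regions, against 4.02 at Arid1b. In its class 29.6% of genes were at least as dense. Without replicate 2, or without replicate 3, Arid1a had 0 replicated regions. It had no saline peak.

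Actl6b, the neuronal subunit (chromosome 5, 137553361 to 137569582), had 1 peak in kainic acid replicate 2 and 2 in saline replicate 2 within 10 kb of its span. The kainic acid peak (137561625 to 137561922) lay inside the gene with a fold of 3.78, percentile 70.3, and 13 reads at its summit. One saline peak (137553460 to 137553674, fold 4.59, 18 reads) had its summit 32 bp after the start site, past the end of the sequence shown above, whose capitals lie under the upstream part of the peak. The other (137570848 to 137571087, fold 4.00, 12 reads) lay in the neighbouring gene Tfr2. Each of these 3 peaks rested on 1 library.

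Across the 10 genes, the 5 saline peaks overlapped none of the 96 kainic acid regions. The share of all 3277 peaks of saline replicate 2 that overlap a kainic acid region was not computed. Without that share the count says nothing particular about these genes. Of the 5 saline peaks, 2 were within 1 kb of the start of a BAF gene, at Smarca2 and Actl6b, and the other 3 lay in neighbouring genes. All came from saline replicate 2, with 12 to 19 reads at the summit. Since the other 2 saline lists held 9 peaks in all, whether a second saline library would show them cannot be told.

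Other subunits of BAF and of its relatives PBAF and ncBAF were counted in the same way. Of 21 such genes, 13 had a replicated region (61.9%) and 10 one in all 3 lists (47.6%). The number of replicated regions per gene had a median of 1 there, 0.5 in the 10 genes described and 0 over all protein-coding genes. Bcl11b, a zinc finger subunit of the neuronal complex, had the most, 12, and its best region had a mean percentile of 1.59. Next in rank came regions near Ss18 (2.75), the subunit altered in synovial sarcoma, Bicral (3.07), of ncBAF, and Phf10 (4.53), of PBAF. All 4 of these regions were in all 3 lists. Of 21 other ATP-dependent remodellers, 13 had a replicated region (61.9%), and of 11 histone deacetylases, 6 (54.5%). These lists differ in gene length, with median spans of 54.6 kb for the 10 genes, 31.8 kb for the other subunits, 83.2 kb for the remodellers, 27.6 kb for the deacetylases and 17.2 kb for all protein-coding genes. The differences between lists were not tested.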

How the data were processed

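The 6 narrowPeak lists hold 1 library each, none pooled, 3 of saline and 3 of kainic acid hippocampus. Per the submitters' processing notes, the authors used Trim Galore 0.6.4, Bowtie2 2.3.4.3, MACS2, deepTools 3.5.0 and the build mm10 (GRCm38). Neither the calling cutoff nor the control used is given in the sources used here. Peak names show a mapping quality of 30, per the file contents. The deposited score is 10 times the −log10 q. The deposited fold is a linear ratio to local background, and the authors' −log10 p and −log10 q are likewise per library. Libraries were not put on a common scale, so these values served only within a list. The deposited summit offset gave positions.

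Peaks within 10 kb of a gene's span (RefSeq table of GRCm38.p6) were counted. Peaks overlapping by at least 1 bp were merged across the 6 lists. Read numbers at summits were solved from fold = (k + 1)/(λ + 1) and a Poisson p, an inferred model that solved 137 of 137 peaks and was tested on simulated data, as was the merging. No read totals come with the lists, so depth is known only through these reads. Python 3.11.15, pandas 2.3.3 and scipy 1.17.1 were used. The members and lists were chosen with earlier results of these data known. All 10 genes are named, each with its region in the most kainic acid lists and of best mean percentile; of the other subunits, the 4 of lowest mean percentile are named. Genes sharing a window are named where a region lies in them, and further regions were described after their values were seen. Alternatives were reach, −log10 q, list length, overlap rule, nearest gene, number of lists, scale and each library left out.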

Additional observations from a re-analysis of the deposited data

How the results depend on the processing

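Leaving out Arid1b was chosen after seeing the data; the other alternatives were set with earlier results known. The log10 difference in peaks near these genes stayed positive in every alternative run, from 1.02 to 1.51 with one library left out; no p under 0.05 can be reached at this size. With the replicate block it was 1.25 (exact permutation of signs over 3 pairs, p = 0.25, the minimum). Same-numbered libraries had correlations of deviations over the 10 genes of −0.156, −0.00650 and 0.221. Saline replicates 1 and 3 are at 0 for every gene, so these cannot show pairing, and the numbers were not treated as pairs. The 26 replicated regions became 14 at −log10 q from 5 up and 7 from 10 up, 10 with equal numbers of kainic acid peaks, 8 in all 3 lists, 96 in any list and 11 without Arid1b; leaving out one library gave 8 to 26. The 5 genes with such a region became 3 at −log10 q from 10 up and 9 for any list, and 4 to 5 with one library left out. The 4 genes with a saline peak became 2 at a reach of 0 or 1 kb and where the gene had to be the nearest, 1 and 0 at −log10 q from 5 and from 10 up, and 0 to 4 with one library left out, 0 being without saline replicate 2. The number of replicated regions with a saline peak was 0 except at a reach of 50 kb, where it was 1. The median over genes of the best region's mean percentile was 36.9, and 17.2 to 45.5 with one kainic acid library left out. A gene whose best region was called only in the library left out was dropped, so these medians do not all cover the same genes. For single genes, 38 of 180 alternative counts of regions differed by over 1.5 times (25 lower, 13 higher), 12 differed by less and 130 were equal, zeros that stayed at 0 included. All 19 alternative percentiles differed from their own main value, 1 by more than 1 SD over libraries (Smarcd1 by −log10 q). The saline side rests on 5 peaks of 1 library.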
